A study of Mus musculus with 5 samples.

Results

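The proteasome is the protease complex that degrades ubiquitin-tagged proteins. Its subunit genes were taken here as every gene whose symbol begins with Psma, Psmb, Psmc, Psmd, Psme, Psmf or Psmg and a digit. This selected 50 of the 27998 genes in the deposited gene table, and no copy with a -ps suffix was among them. They comprised 7 subunits of the alpha ring, 4 structural subunits of the beta ring, 3 constitutive catalytic subunits (Psmb5, Psmb6, Psmb7), 3 immune catalytic subunits (Psmb8, Psmb9, Psmb10), 6 ATPases and 11 non-ATPases of the 19S cap, 5 activators, 1 inhibitor (Psmf1) and 7 assembly chaperones. The rule also took Psma8, a testis subunit with 0 UMIs in these data, Psmb11, a thymus subunit with 3 UMIs, and Psmc3ip, a recombination protein that is no subunit, with 129 UMIs. Counts of members below leave out Psmc3ip, and Psma8 and Psmb11 were too low to test, which left 47 members in most tests.

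The measurements were droplet single-cell RNA profiles of epithelium from the ileum (the distal small intestine) of C57BL/6 mice aged 8 to 12 weeks, after sham surgery (3 libraries) or small bowel resection (2 libraries). Resection removes a length of small intestine, and sham surgery is the matching control operation. The labels do not give the time since surgery, the sex of the mice or how many mice a library holds, so p-values measure the spread between these libraries. Each transcript molecule was counted once at its 3′ end by a unique molecular identifier (UMI), so the counts are not scaled by gene length, although the share of molecules caught can differ between genes.

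In the barrel-shaped 20S core, alpha rings guard the entrance and beta rings hold the active sites. Psmb5, Psmb6 and Psmb7 carry the chymotrypsin-like, caspase-like and trypsin-like activities. Interferon induces their immune counterparts Psmb8, Psmb9 and Psmb10, which replace them in newly assembled particles (the immunoproteasome) and shift cleavage toward peptides that MHC class I molecules present. The 19S cap binds and unfolds ubiquitin-tagged proteins, Psme1 and Psme2 form the interferon-inducible PA28 activator, and the Psmg chaperones assemble the core. Enterocytes absorb nutrients, renew from crypt stem cells within days, and take part in antigen presentation.

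Short promoter windows are shown because they hold the 2 interferon-response sequences searched for, and because the immune subunits moved with interferon genes in the cells described further on. RefSeq start sites (GRCm38.p6) were matched for 42 of the 50 genes, and each window searched ran from 250 bases before to 50 bases after the start, 300 bases in all. The interferon-stimulated response element was searched as GAAA, any 2 bases and GAAA again, and the gamma-activated site as TTCNNNGAA, on both strands. Capitals mark the match, with 10 bases on each side where the window held them.
Psmb8, gamma-activated site, chr17:34198088-34198116, plus strand: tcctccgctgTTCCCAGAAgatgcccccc
Psme1, response element, chr14:55578493-55578522, plus strand: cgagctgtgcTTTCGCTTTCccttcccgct
Psmb3, response element, chr11:97703261-97703290, plus strand: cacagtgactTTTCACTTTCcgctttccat
Psmd4, response element, chr3:95042675-95042704, minus strand: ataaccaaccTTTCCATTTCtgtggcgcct
Psmg4, response element, chr13:34162969-34162998, plus strand: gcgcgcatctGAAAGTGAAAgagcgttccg
The Psmb8 match began 97 bases before the start site (position -97) and the Psme1 match at position 10 after it. The other matches were a response element in Psmd9 at -159 and gamma-activated sites in Psmd2 at 5 and Psmg1 at -243. Of the genes with a match, only Psmb8 and Psme1 were called higher in the interferon-high cells described further on. Psmb3 averaged 203 CPM in those cells against 229 in the rest, Psmd4 128 against 139 and Psmg4 8.81 against 13.1. The response element stood in 5 of 41 subunit promoters and in 943 of 27025 promoters in all (3.49%), and the gamma-activated site in 3 of 41 and in 2288 (8.47%). Psmb9, Psmb10 and Psme2 held neither run of letters in this window, which says nothing of these factors' binding there. Psmb9 (chr17:34182030-34187330) and Psmb8 (chr17:34198195-34201454) lie within the MHC region on either side of Tap1 (chr17:34187556-34197225), a peptide transporter gene.

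The libraries held 1402 to 7233 cells and 11749028 to 41281731 UMIs, with medians of 4541 to 6239.5 UMIs per cell, and pairs of libraries shared 6 to 47 cell barcodes. After filtering, 18235 of 19404 cells formed 21 clusters, named as enterocyte-like, immature enterocyte-like, cycling-like, stem-like, Paneth-like, goblet-like, tuft-like and T cell-like from marker genes. Clustering separated the libraries into 2 sets irrespective of surgery. Set A was sham 1 and resection 1, and set B was sham 2, sham 3 and resection 2. Pairs of libraries within a set shared 17.4% to 26.4% of their cluster composition, against 4.26% to 6.22% for pairs across the sets. Over all epithelial cells, the 83 ribosomal protein genes summed to 66120 and 67350 CPM (counts scaled to a common library total) in set A and to 103000 to 122900 in set B. The median mitochondrial share of UMIs was 13.7% and 11.7% in set A and 7.24% to 9.19% in set B. Their part in the subunit levels was not tested, so resection is given within each set as well, and classes and states are compared within libraries.

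Immune subunit transcripts were abundant in enterocyte-like cells. Psmb10, whose product has trypsin-like activity, reached 332, 342 and 427 CPM in the sham libraries (numbered 1 to 3), against 279 and 393 CPM in resection 1 and 2. Psmb8, the chymotrypsin-like immune subunit, was at 144, 151 and 134 CPM in the sham libraries, against 112 and 191 CPM with resection. Psmb9, the counterpart of Psmb6, was lowest of these, with 44.6, 50.2 and 48.6 CPM in the sham libraries, against 33.6 and 54.9 CPM with resection. For each of these genes, 1 resection library lay below all sham libraries and, for Psmb8 and Psmb9, the other lay above them.

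The constitutive catalytic subunits split the libraries by set. Psmb5 was at 76.3 CPM in sham 1 and 78.0 CPM in resection 1, against 147, 179 and 159 CPM in sham 2, sham 3 and resection 2. Psmb6 was at 155 and 168 CPM in set A and at 311, 344 and 325 CPM in set B. Psmb7 was at 48.2 and 57.2 CPM in set A and at 115, 141 and 104 CPM in set B. In each of these genes, the set A libraries lay below every set B library whatever the surgery. Psmb9 and Psmb10 were split in the same way by smaller gaps, and Psmb8 overlapped between the sets.

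**Figure D1:**
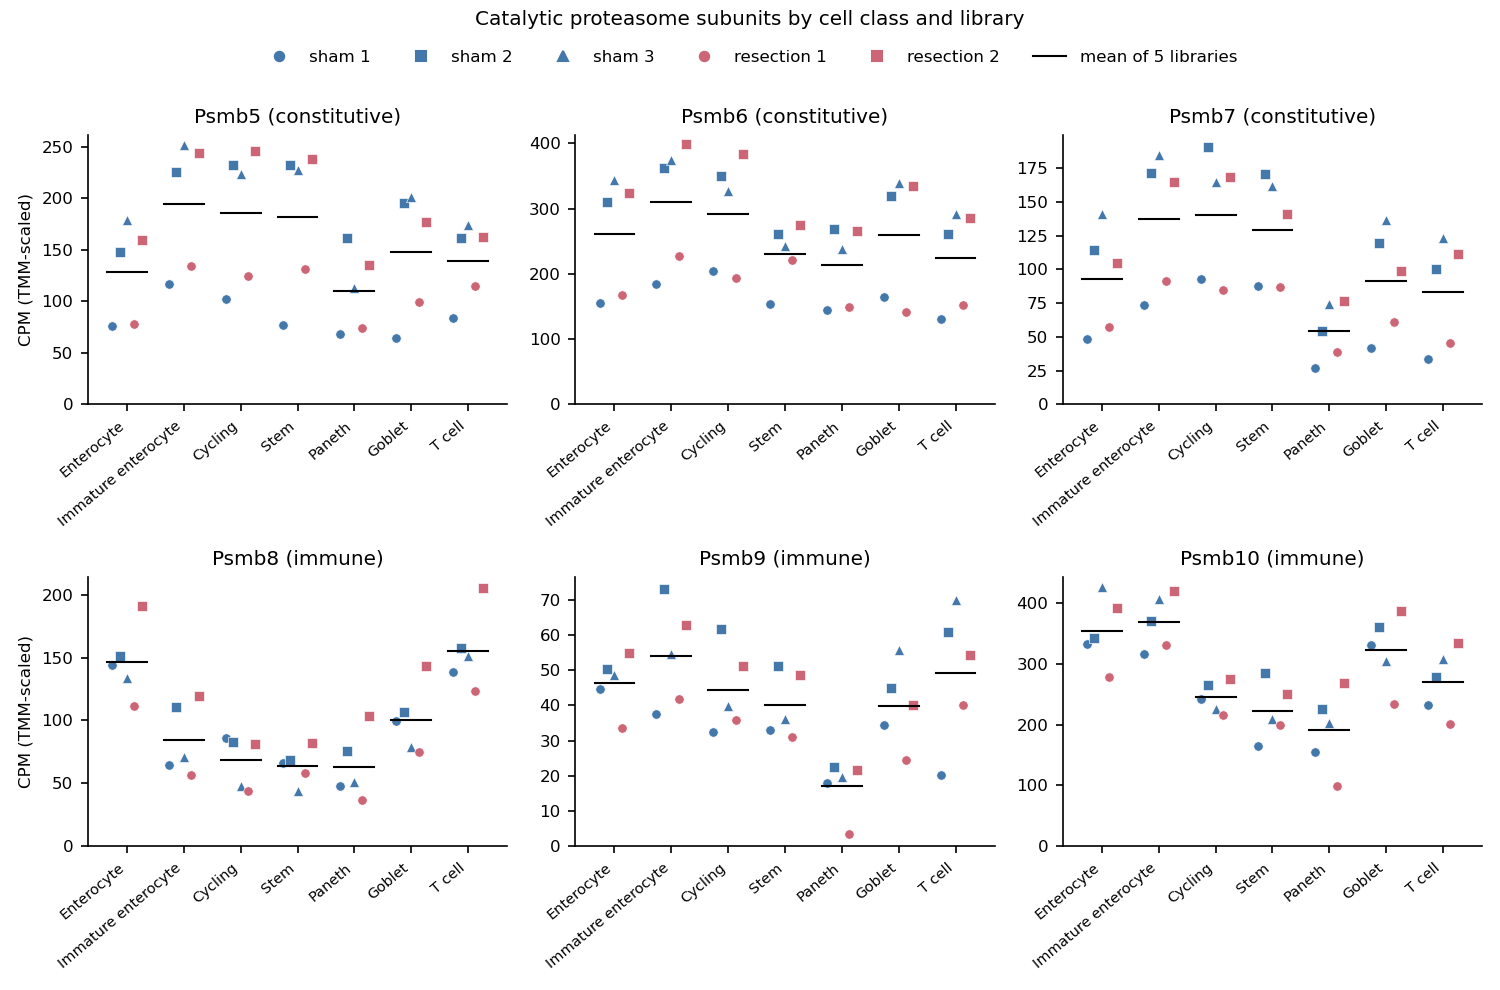
Levels of the 3 constitutive and the 3 immune catalytic subunits (y axis, CPM, linear from 0) in 7 cell classes (x axis), with 1 point per library and a line at the mean of the 5 libraries. The constitutive subunits of sham 1 and resection 1 lie below those of the other libraries in every class shown, and Psmb8 is lower in cycling-like (43.7 to 86.2 CPM) than in enterocyte-like cells (112 to 191 CPM).

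The order of mean levels over the 5 enterocyte-like sums was Psmb10 (355 CPM ± 57.1, SD, n = 5), Psmb6 (260 ± 91.4), Psmb8 (146 ± 29.1), Psmb5 (128 ± 47.8), Psmb7 (93.1 ± 39.3) and Psmb9 (46.4 ± 8.03). The ranges of all neighbours in this order overlapped across libraries. Within libraries, each gene lay above the next in all 5, apart from Psmb8 and Psmb5. The order of Psmb8 and Psmb5 differed between libraries. The highest mean level of any member was that of the activator subunit Psme2 (510 CPM), at 279 and 323 CPM in set A and 555, 748 and 646 CPM in set B. Its near-identical copy Psme2b ran the other way, with 78.4 and 57.2 CPM in set A and 25.8, 36.1 and 33.4 CPM in set B, so reads of the pair may have been divided differently and both values are uncertain. Psme1, the other PA28 subunit, was at 174 to 341 CPM, Psme3 (the nuclear PA28 gamma) at 22.4 to 32.6 CPM and Psme4 (PA200) at 33.4 to 54.9 CPM. The alpha ring averaged from 74.8 CPM (Psma5) to 246 CPM (Psma7) and the structural beta subunits from 151 CPM (Psmb2) to 280 CPM (Psmb1). Cap genes were lower, from 31.4 CPM (Psmd12) to 139 CPM (Psmd4), and the chaperones Psmg1, Psmg2 and Psmg3 averaged 4.23 to 5.97 CPM.

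The balance between the catalytic sets was expressed as the immune share, the percentage of Psmb8, Psmb9 and Psmb10 among the UMIs of all 6 catalytic genes. The enterocyte-like value was 65.1% in sham 1 (95% exact binomial interval 63.5 to 66.7, counting error only), 48.7% in sham 2, 47.8% in sham 3, 58.3% in resection 1 and 52.1% in resection 2. Set A was above set B in both surgery groups. The share was high in set A, where Psmb5, Psmb6 and Psmb7 were low, and the part of any single property of the libraries in this was not tested.

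Immune subunits made up a smaller share in the crypt classes. In cycling-like cells the sham libraries had shares of 47.4%, 34.7% and 30.5%, and the resection libraries 42.3% and 33.8%. The difference from enterocyte-like cells of the same library averaged -16.7 percentage points (SD 1.71, n = 5). Stem-like cells, of which sham 1 held 9, differed by -16.2 points (SD 3.53), Paneth-like cells by -13.0 (SD 7.18), immature enterocyte-like cells by -9.19 (SD 2.11) and goblet-like cells by -4.81 (SD 2.48). In each of these 5 classes all 5 libraries were lower than enterocyte-like cells (exact two-sided sign-flip permutation p = 0.062, the smallest that 5 libraries allow, and 0.075 adjusted over the 6 classes). T cell-like cells differed by -1.91 points (SD 2.18), lower in 4 of 5 libraries (exact permutation p = 0.125, adjusted 0.125). These differences share their enterocyte-like reference.

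**Figure D2:**
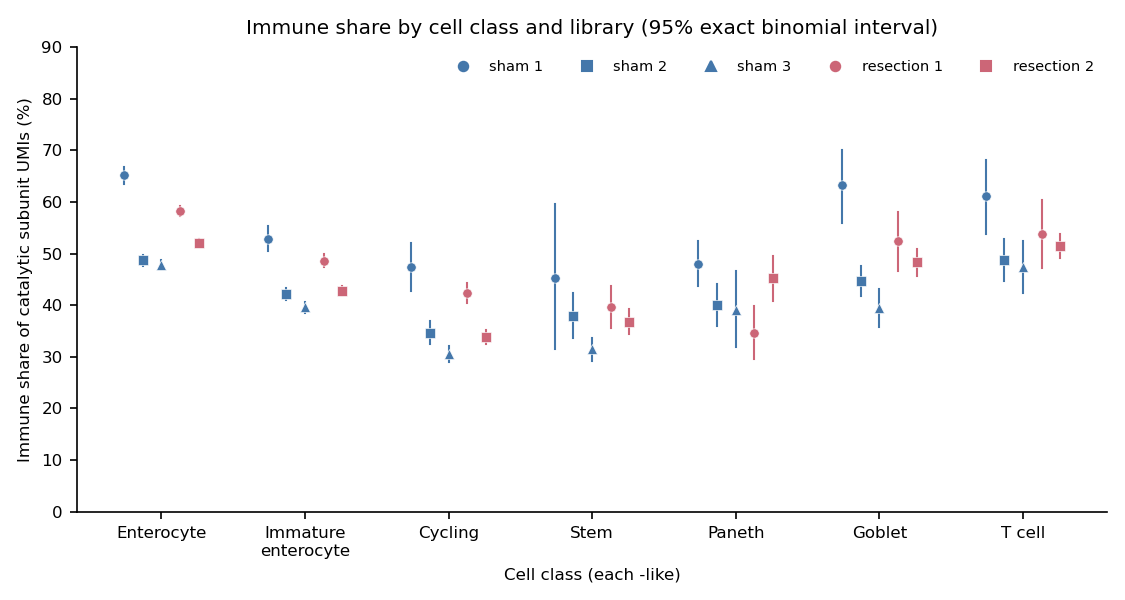
Immune share (y axis, percent of the UMIs of the 6 catalytic genes) by cell class, with 1 point per library and bars for the 95% exact binomial interval of counting error. Enterocyte-like cells lie between 47.8% and 65.1%, and cycling-like cells between 30.5% and 47.4%.

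The first comparison by gene set immature enterocyte-like against enterocyte-like cells. The 7 immature enterocyte markers did not separate these classes in sum, at 12900 to 35700 CPM against 15200 to 36000 CPM in enterocyte-like cells. The 10 enterocyte markers did, at 7270 to 30200 CPM against 51600 to 124000 CPM. Both lists were used to name the clusters, so a difference in them is partly built in and is no independent support. Whether the classes are newly formed and mature absorptive cells was not tested. The line between these classes was thin for 2 clusters. The marker score that named cluster 3 enterocyte-like was 0.590, with 0.559 for the next class, and the score that named cluster 4 immature enterocyte-like was 0.576, also with 0.559 for the next class. With doublets kept, the cluster led by Gsta1, Fabp6 and Reg3b (as cluster 4 is) was named enterocyte-like, and the one led by Areg and F3 (as cluster 3 is) immature enterocyte-like. At a clustering resolution of 0.5, sham 1 kept 72 enterocyte-like cells in place of 696. Counts were summed per library and class and tested by edgeR's quasi-likelihood test with the library as a block, and p-values were adjusted over all genes (Benjamini-Hochberg, threshold 0.05). The constitutive core was higher as a whole: all 14 constitutive 20S genes passed, with a median log2 difference of 0.43. Psmb8 was the only member that passed as lower, while Psmb9 and Psmb10 did not pass. Of 47 members tested, 25 were higher and 1 lower, against 33.4% of all 10641 genes higher and 34.2% lower (67.5% in all). Higher calls were thus more frequent, and lower calls rarer, among members than among all genes.

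Psmb8 was at 64.5, 110, 70.5, 56.5 and 119 CPM in immature cells of sham 1, 2, 3 and resection 1, 2, below the enterocyte-like level of its own library in all 5. Its log2 difference was -0.84 (SE 0.10, edgeR adjusted p = 1.72e-05). Psmb9 was at 0.21 (adjusted p = 0.0762) and Psmb10 at 0.05 (adjusted p = 0.545), so the immune genes did not follow one direction. In contrast, the constitutive partners Psmb5 (0.61, SE 0.07, adjusted p = 1.5e-05), Psmb7 (0.57) and Psmb6 (0.25) were higher in 5 of 5 libraries. The alpha subunits ranged from 0.35 (Psma6) to 0.66 (Psma3). In the cap, 5 of 17 genes passed, all higher, among them Psmd7 (0.62), a scaffold partner of the deubiquitinase Psmd14 (0.29). The chaperones Psmg1 (1.84), Psmg2 (1.24), Psmg3 (2.40) and Psmg4 (1.14) were all higher, as was Psme3 (0.30), whereas Psme1 (-0.00), Psme2 (-0.10) and Psme4 (-0.06) did not pass, nor did the members with the lowest values, Psmc5 (-0.17) and Psmd13 (-0.15). Without the library block, 6 members passed as higher. Counts from this and later fits with other settings, apart from DESeq2, are given without the share of all genes called there. They do not tell a change in members from a change in all genes.

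Genes of the presentation pathway were lower in the immature cells. Of 15 MHC class I presentation genes tested, 11 were lower and 0 higher, and of 18 interferon signalling genes 16 were lower and 1 higher. The class I genes H2-Q2 (-2.24) and H2-Q1 (-2.75), the kinase gene Jak2 (-1.54) and the ubiquitin-like modifier Ubd (-3.81) had the lowest p-values of their lists. In the list of 21 proteasome control genes, 5 were higher and 9 lower. Usp14, a deubiquitinase of the cap, was higher (1.01).

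Cycling-like cells, which carried mitotic markers, were compared with the same enterocyte-like sums. The core was again higher, but Psmb10 and PA28 were lower together with Psmb8. Of 47 members, 25 were higher and 8 lower, against 36.9% and 41.4% of 10306 genes. The members' share of higher calls exceeded that of all genes and their share of lower calls was below it. All 14 constitutive 20S genes lay above 0 and 10 of them passed, with a median of 0.37. Psmb8 was at 86.2, 83.0 and 48.0 CPM in the sham libraries, against 43.7 and 81.0 CPM with resection, for a log2 difference of -1.14 (SE 0.11, adjusted p = 2.15e-07). Psmb10 was at 242, 266, 226, 216 and 275 CPM in the same order, below its enterocyte-like level in 5 of 5 libraries (-0.50, SE 0.11, adjusted p = 5.26e-04). Psmb9 did not differ beyond its error (-0.02, SE 0.12, adjusted p = 0.856).

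The PA28 genes were lower with Psmb8 and Psmb10: Psme1 by -0.49, Psme2 by -0.58 and its copy Psme2b by -0.43. The other activators parted, with Psme3 higher (0.70) and Psme4 at -0.25 (adjusted p = 0.0512). Psmb5 (0.57) and Psmb7 (0.64) were higher, and Psmb6 (0.21) missed the threshold with an adjusted p of 0.0693. Among the better expressed members, those with the largest differences were Psmg3 (3.90), Psmg4 (1.5) and Psmd7 (0.97) on the high side and Psmb8, Psme2 and Psmd10 (-0.55), a cap assembly chaperone known as gankyrin, on the low side. Psmg3 was at 39.0, 71.8, 71.2, 37.9 and 70.1 CPM, against 2.34 to 7.01 CPM in enterocyte-like cells. Psmg1 (2.35) and Psmg2 (2.49) were also higher, and so was Psmc3ip (3.19), which acts in homologous recombination.

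Psmd8 (-0.26) and Psmd13 (-0.25) completed the members that were lower in cycling-like cells. In the fit without the library block, 14 members were higher and 1 lower. DESeq2 called 5 members lower, against 3744 of 10306 genes, and 5 were lower without sham 3 and 5 without resection 2. Of 14 MHC class I genes, 12 were lower, with the lowest p-values for H2-Q2 (-3.62) and H2-Q1 (-3.87). Of 17 interferon signalling genes 16 were lower, with the lowest p-values for Jak2 (-2.64) and the cytokine receptor gene Il10rb (-1.83). In the control list, Usp14 was higher (1.28).

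**Figure D3:**
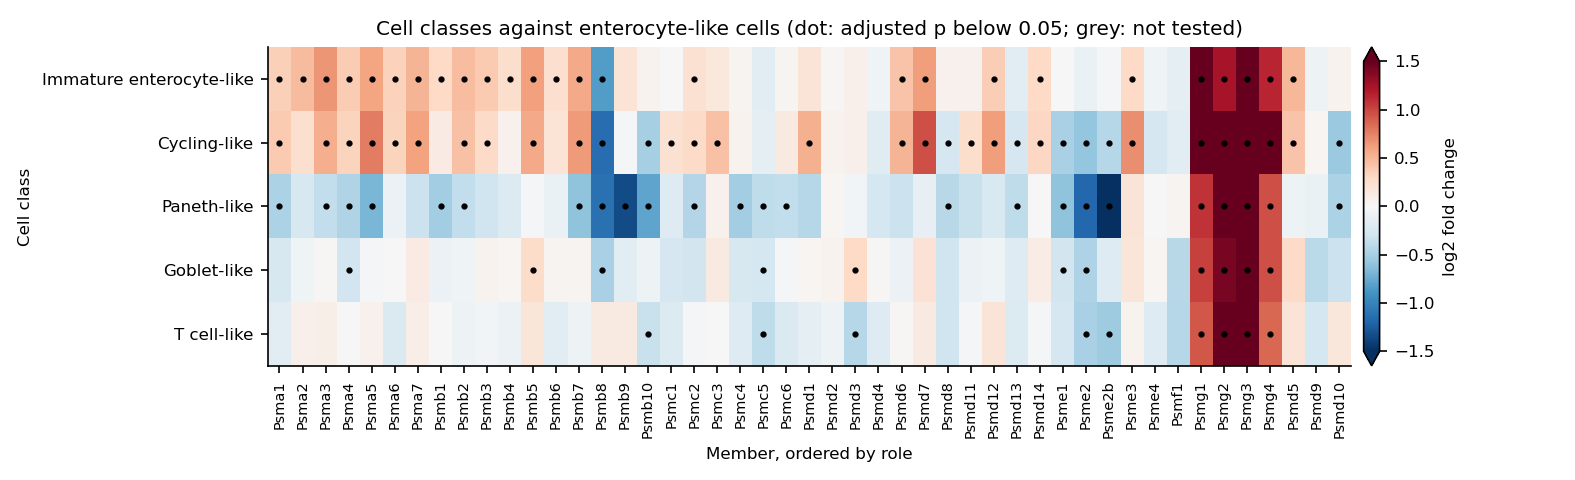
Heat map of the log2 difference from enterocyte-like cells for each of 47 members (columns, by role) in 5 classes (rows), with a dot for an adjusted p below 0.05 and colours that saturate at the ends of the scale. Psmb8 is at -1.14 in cycling-like and -1.12 in Paneth-like cells, and Psmg1 to Psmg4 are higher in every class shown.

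Paneth-like cells, the defensin-secreting cells of the crypt base, had lower TMM-scaled levels of the immune subunits, of PA28 and of part of the core and cap. Psmb9 was at 18.1, 22.4, 19.5, 3.53 and 21.7 CPM in sham 1, 2, 3 and resection 1, 2, below the enterocyte-like level in 5 of 5 libraries (-1.35, SE 0.21, adjusted p = 4.31e-07). Psmb8 (-1.12) and Psmb10 (-0.80) were lower as well. PA28 was lower too, at -1.18 for Psme2, -1.65 for Psme2b and -0.60 for Psme1. Of 47 members, 20 were lower and 4 higher, against 24.3% and 23.7% of 9441 genes (48.1% in all), a larger share of lower calls than among all genes, and the 4 higher were Psmg1 (1.08), Psmg2 (1.51), Psmg3 (2.04) and Psmg4 (0.97).

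Of the 14 constitutive 20S genes 7 passed, all lower, among them Psma5 (-0.68), Psmb7 (-0.61), Psmb1 (-0.52) and Psma1 (-0.47). Psmb5 (-0.02) and Psmb6 (-0.10) did not pass, nor did Psme3 (0.19), Psme4 (-0.00), Psmc3 (0.07) and Psmf1 (0.04). In the cap 6 of 17 genes were lower, 4 of them ATPases: Psmc4 (-0.52), Psmc2 (-0.44), Psmc5 (-0.39) and Psmc6 (-0.37). Without the library block 5 members were lower, and without sham 2 there were 12, with the share of all genes called there not given. Paneth-like cells of set A and of set B lay in different clusters, and enterocyte markers summed to 18000 to 63500 CPM in them, against 51600 to 124000 in enterocyte-like cells. The 9 T cell markers in the gene table, all with UMIs, summed to 152 to 1720 CPM, against 30.6 to 140. The 9 goblet markers in the table summed to 27800 to 50800 CPM, against 585 to 1550, and the 6 myeloid markers to 112 to 431 CPM, against 2.71 to 8.63, all with UMIs. The median mitochondrial share was 1.42% to 3.83%, against 7.8% to 14.4%, and the median depth 5891 to 19640 UMIs, against 4061 to 5962. The 11 Paneth markers summed to 1200000 to 2090000 TMM-scaled CPM, so scaled CPM in these cells are not fractions of all their UMIs. Without that scaling Psmb5, which did not pass, was at 37.1 and 16.3 CPM in the Paneth-like clusters 12 and 17, against 69.3 to 184 CPM in enterocyte-like clusters. Which members pass thus rests on the scaling. The part of scaling, clusters, markers, mitochondrial share and depth in these differences was not tested. H2-T3 (-1.71), B2m (-1.16), and the receptor genes Ifngr1 (-1.11) and Ifngr2 (-0.98) had the lowest p-values of the presentation and interferon lists, in which 10 of 14 and 7 of 18 genes were lower. In the control list Zfand2a, an arsenite-inducible proteasome-binding protein, was higher (2.31) and Nfe2l2 lower (-1.05).

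In goblet-like and T cell-like cells fewer members passed. In goblet-like cells, which secrete mucus, 6 of 47 members were higher and 5 lower, both smaller shares than those of all 9640 genes (20.4% and 22.4%). Psmb8 was at 99.2, 106, 79.0, 75.1 and 143 CPM, below enterocyte-like cells in 5 of 5 libraries (-0.49, SE 0.10, adjusted p = 3.03e-04). Psme2 (-0.46), Psme1 (-0.28), Psma4 (-0.29) and Psmc5 (-0.27) were also lower, and Psmb9 (-0.16), Psmb10 (-0.08), Psmb6 (0.04), Psmb7 (0.04), Psme3 (0.19), Psme4 (0.03), Psmd9 (-0.41) and Psmd7 (0.21) did not pass. Psmb5 (0.28), Psmd3 (0.29), Psmg1 (1.02), Psmg2 (1.43), Psmg3 (2.62) and Psmg4 (0.96) were higher. B2m (-0.92), H2-D1 (-0.77), Jak2 (-0.97), Ifngr1 (-0.65) and Ubb (-0.74) were lower. DESeq2 called 3 members lower, against 1692 of 9640 genes. The count of lower members was 0 without the library block, 3 without sham 2, 3 without sham 3 and 2 without resection 1.

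T cell-like cells carried T cell markers at 4770 to 14400 CPM, with enterocyte markers still at 28000 to 75400 CPM. Psmb8 was at 0.14 here (adjusted p = 0.329). Psmb9 was at 0.14 (adjusted p = 0.511) and Psmb10 was lower at -0.33 (SE 0.10, adjusted p = 0.00899). Of 47 members, 4 were higher and 5 lower, again smaller shares than the 20.6% and 20.1% of 10196 genes. Psme2 (-0.49), Psme2b (-0.53), Psmc5 (-0.38) and Psmd3 (-0.43) were the other lower members, and the higher ones were Psmg1 (0.93), Psmg2 (1.49), Psmg3 (2.02) and Psmg4 (0.86). Psmc3ip was also higher (2.31). Psmb5 (0.18), Psmb6 (-0.16), Psmb7 (-0.08), Psme1 (-0.26), Psme3 (0.05), Psme4 (-0.20), Psmd12 (0.19) and Psmd10 (0.17) did not pass. Outside the members, H2-Q2 (-0.73), H2-T3 (-0.72), and Ifngr2 (-0.69) were lower, and the interferon-inducible GTPase gene Gbp2 (4.34) and Usp14 (0.73) were higher. Without the library block 2 members were higher and 0 lower, and 3 were lower without resection 1. DESeq2 called 2 members lower, against 1462 of 10196 genes.

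Within enterocyte-like cells, 4 states were defined per library as the 10% of cells with the highest share of UMIs in a fixed gene list, and set against the remaining enterocyte-like cells of the same library. No list held a subunit gene, and such cells are a range of a score and not a cell type. The high cells numbered 70 (sham 1) to 406 (resection 2) per library. Cutoffs differed between libraries, for the MHC class II list from 314 CPM in sham 3 to 2229 CPM in sham 2. Median list UMIs per high cell were as low as 4 for MHC class II in sham 3 and 5 for interferon in sham 2. The interferon list (Isg15, Ifit1, Rsad2 and 13 others) is described first. In interferon-high cells all 3 immune subunits and PA28 were higher, while no constitutive catalytic subunit passed. Of 47 members, 6 were higher and 2 lower, against 7.37% and 5.87% of 8770 genes. These counts are small, and whether they differ from the background was not tested. The 6 include both Psme2 and its copy Psme2b, whose reads may have been divided between them.

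Psmb8 was at 267, 225, 242, 204 and 268 CPM in interferon-high cells of sham 1, 2, 3 and resection 1, 2, and at 129, 142, 122, 99.01 and 184 CPM in the rest. The 5 high values all lay above the 5 others, and the log2 difference was 0.93 (SE 0.08, edgeR adjusted p = 2.60e-13). Psmb9 was at 70.1, 74.6, 79.8, 65.9 and 83.0 CPM against 41.3, 47.5, 45.0, 29.3 and 52.1 CPM, again without overlap (0.91, SE 0.10, adjusted p = 6.75e-10). Psmb10, which already stood highest, differed by 0.25 (SE 0.07, adjusted p = 0.00666) and was higher in 4 of 5 libraries. It did not pass without sham 1 or when the highest 20% of cells were taken.

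The PA28 differences were smaller, with Psme2 at 0.21 (adjusted p = 0.0143), Psme1 at 0.21 (adjusted p = 0.0336) and Psme2b at 0.38. Psme1 did not pass when any 1 library was left out, and Psme2 passed only in the setting without sham 3. Psmb5 (-0.14), Psmb6 (0.01) and Psmb7 (-0.19) did not pass, nor did Psme3 (-0.21), Psme4 (-0.02) and Psmd6 (-0.27). The 2 lower members were Psmd7 (-0.38) and Psma3 (-0.28), and DESeq2 called neither, against 274 of 8770 genes lower. The count of higher members was 2 without sham 1, 3 without resection 1 and 2 for the highest 20% of cells. The share of all genes called in those fits is not given.

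**Figure D4:**
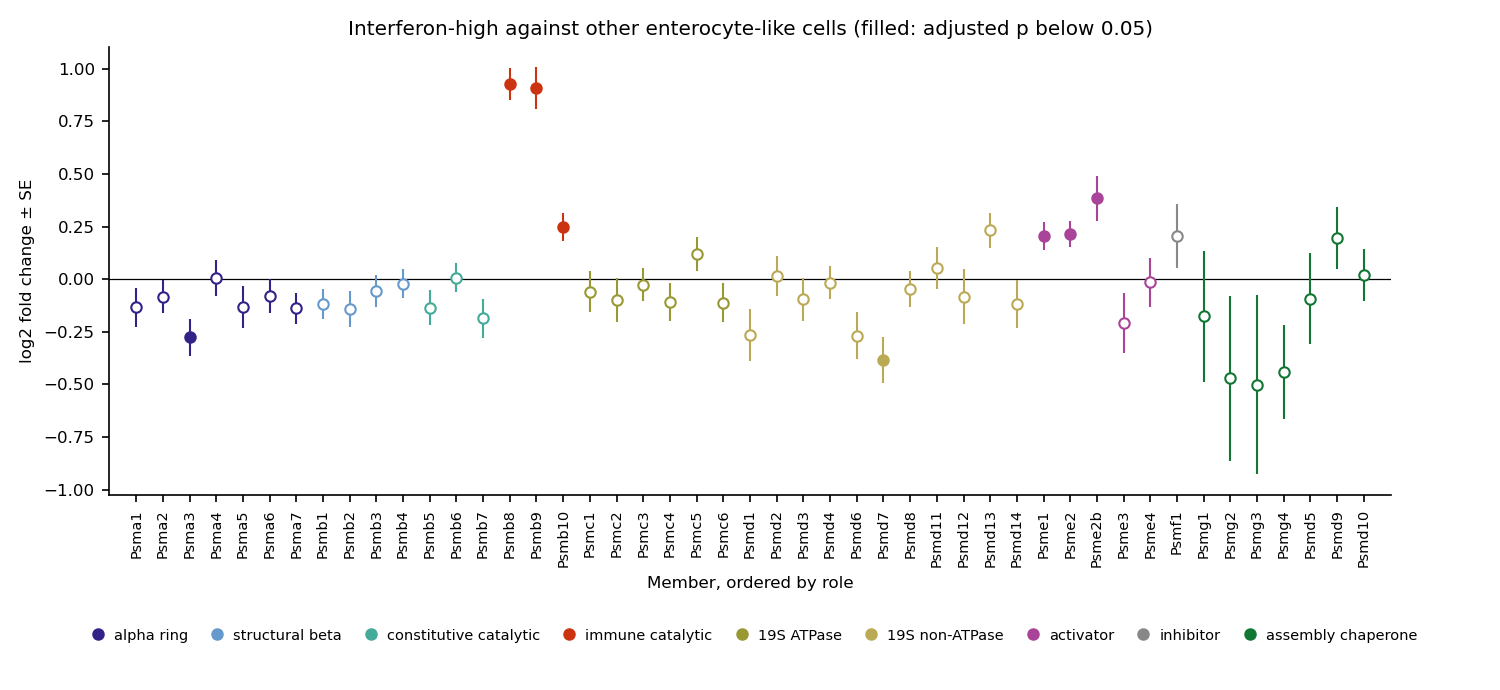
Log2 difference of each of 47 members (x axis, by role) between interferon-high and other enterocyte-like cells, with bars for the SE and filled points for an adjusted p below 0.05. Psmb8 (0.93) and Psmb9 (0.91) stand above the other members, and Psmb5, Psmb6 and Psmb7 lie near or below 0.

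The immune share followed. It was 73.3%, 58.1%, 56.9%, 67.2% and 58.7% in interferon-high cells of sham 1, 2, 3 and resection 1, 2, against 63.9%, 47.7%, 46.8%, 57.1% and 51.4% in the rest. The mean difference was 9.44 points (SD 1.27), higher in 5 of 5 libraries (exact sign-flip permutation p = 0.062, adjusted over the 4 states 0.125). Cluster 18, whose leading genes were interferon-induced, held 160 cells and 15.2% of the interferon-high cells. Its share was 74.2%, 59.9%, 59.4%, 66.7% and 63.9%, from 62 to 352 catalytic UMIs per library. Of the presentation list, 10 of 15 genes were higher and 1 lower. Tap1 (1.34) and H2-K1 (0.65) had the lowest p-values, and Nlrc5 (3.06), a transactivator of class I genes, the largest difference. Of the interferon signalling list 10 of 18 were higher, among them Igtp (3.48), and Ubb (0.33) and Zfand5 (-0.40) had the lowest p-values in the control list. The immune subunits, PA28 and many of the presentation and interferon genes are induced by interferon, as is the list that chose the cells. Their differences are therefore given as a description of these cells and not as independent support for an interferon response.

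Cells high in MHC class II genes (H2-Aa, Cd74 and 5 others) differed from the rest mainly in Psmb8. It was at 219, 218, 181, 147 and 252 CPM, against 135, 143, 128, 105 and 185 CPM in the rest, higher in 5 of 5 libraries (0.61, SE 0.07, adjusted p = 2.27e-08). Psmb9 (0.28, adjusted p = 0.112) and Psmb10 (0.13, adjusted p = 0.238) did not pass. Psmb8 was 1 of 47 members called higher, and Psma6 (-0.25) and Psma7 (-0.20) were called lower, against 4.18% and 3.66% of 8717 genes (7.84% in all), which is near the background. DESeq2 called 0 members lower, against 187 of 8717 genes. The count of lower members was also 0 without sham 1, without sham 2 and without resection 2, and 1 without sham 3 and without resection 1. Psmb8 was joined by 1 more higher member without resection 1. Psmb5 (-0.18), Psmb6 (-0.08), Psmb7 (-0.10), Psme1 (0.03), Psme2 (0.15), Psme3 (-0.01), Psme4 (-0.02), Psmd1 (-0.24), Psmd14 (-0.23) and Psme2b (0.30) did not pass.

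The immune share in class II-high cells was 70.6%, 54.4%, 52.5%, 66.4% and 57.6%, against 64.5%, 48.2%, 47.3%, 57.4% and 51.6%. The mean difference was 6.51 points (SD 1.48), higher in 5 of 5 libraries (exact permutation p = 0.062, adjusted 0.125). B2m (0.51), H2-Q2 (0.55), Ubd (1.88), Igtp (0.98) and Ubb (0.29) were higher and Vcp (-0.22) lower in the pathway lists, in which 7 of 14 presentation and 2 of 17 interferon genes were higher. In the class II-high and interferon-high cells the 6 myeloid markers summed to 0.748 to 10.1 CPM, against 2.39 to 8.83 CPM in the rest, the 9 T cell markers to 32.2 to 155 against 29.5 to 138, and the 6 B or plasma cell markers, 4 of them with UMIs, to 0 to 1.23 against 0 to 1.26. Mean UMIs per cell were lower in both kinds of high cells in all 5 libraries, for example 4330 against 5068 in interferon-high cells of resection 2, and the part of depth was not tested.

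Stress-high cells (Areg, Atf3 and 8 others) showed no called member: 0 of 47 were higher and 0 lower, against 1.86% and 1.33% of 8927 genes. At an unadjusted p below 0.05, 4 members passed in edgeR, against 1451 of 8927 genes. DESeq2 also called 0 members, against 186 genes. Psmb8 was at 113, 117, 128, 105 and 173 CPM in the stress-high cells and at 146, 153, 134, 110 and 195 CPM in the rest, lower in 5 of 5 libraries (-0.16, SE 0.09, adjusted p = 0.400). Psmb10 was at -0.11 and Psmb9 at 0.11. The member closest to the threshold was Psmd12, a cap subunit, at 0.42 (SE 0.12, adjusted p = 0.066), with 22.5, 49.0, 66.9, 24.7 and 37.7 CPM against 18.3, 32.8, 45.1, 20.2 and 34.1 CPM. Psmb5 (0.02), Psmb6 (-0.02), Psmb7 (0.18), Psme1 (-0.00), Psme2 (-0.15), Psme3 (0.08), Psme4 (-0.19), Psme2b (-0.18), Psmd14 (0.31) and Psma4 (0.28) did not pass either. The immune share differed by -1.93 points (SD 2.72, exact permutation p = 0.1875, adjusted 0.25). Zfand5 (0.58), a stress-linked activator of the proteasome and Ifngr1 (0.32) were higher and Tapbp (-0.39) lower.

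In cells high in villus tip genes (Ada, Nt5e, Klf4 and 3 others), 5 of 14 constitutive 20S genes were lower, and none of the 3 constitutive catalytic genes passed. All 14 lay below 0, with a median of -0.21, and those that passed were Psma7 (-0.39), Psma3 (-0.34), Psma4 (-0.30), Psma1 (-0.29) and Psmb1 (-0.24). With Psmd6 (-0.39) and Psmg1 (-1.34) this made 7 of 47 members lower and 0 higher, against 9.87% and 12.4% of 8672 genes (22.3% in all). Whether these counts differ from the background was not tested. Psma7 was at 127, 162, 295, 92.8 and 230 CPM in tip-high cells and at 139, 279, 367, 147 and 321 CPM in the rest, lower in 5 of 5 libraries. DESeq2 called 4 members lower, against 553 of 8672 genes, and 4 were lower without resection 1.

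The immune subunits did not pass in tip-high cells: Psmb8 was at 0.14, Psmb9 at 0.00 and Psmb10 at -0.21 (adjusted p = 0.0776). Psmb5 (-0.17), Psmb6 (-0.14), Psmb7 (-0.21), Psme1 (-0.17), Psme2 (-0.05), Psme3 (-0.03), Psme4 (0.01), Psmd1 (-0.39), Psmd13 (0.24) and Psmf1 (0.11) did not pass either. The share differed by 1.08 points (SD 2.58), higher in 3 of 5 libraries (exact permutation p = 0.4375, adjusted 0.4375). Of 14 presentation genes, 7 were higher in the same cells, among them B2m (0.77) and H2-Q2 (0.81), and 2 were lower, namely the chaperone genes Canx (-0.47) and Calr (-0.21). Ubb (0.52), Zfand2a (1.93), Jak2 (0.32) and Ubd (0.96) were also higher. Tip-high cells had fewer mean UMIs than the rest in all 5 libraries (5125, 3731, 5946, 5092 and 4072 against 5634, 4793, 7843, 5632 and 5097) and a lower mitochondrial share in all 5, from 7.74% to 14.1% against 8.26% to 14.5%. The part of depth and of the mitochondrial share in these differences was not tested.

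The last comparison set resection against sham in each class, the study's own contrast, by the same edgeR test without a block. No member passed in any class. In enterocyte-like cells 0 of 47 members were called, as were 0% of all 10235 genes. At an unadjusted p below 0.05 there were 552 genes and 1 member, and DESeq2 called 66 genes and 0 members. The standard errors of members were 0.23 to 0.51 on the log2 scale, so differences of that size were not detectable with 3 and 2 libraries.

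In enterocyte-like cells the fold changes of the immune subunits were near 0, with Psmb8 at 0.09 (SE 0.31), Psmb9 at -0.11 (SE 0.28) and Psmb10 at -0.12 (SE 0.31). Within set A they were -0.37, -0.40 and -0.25, and within set B 0.42, 0.15 and 0.03, so their direction turned between the sets. Enterocyte-like cells also lay in different clusters by library. Clusters 6 and 10 were mostly resection 1 (1018 of 1029 and 900 of 905 cells), clusters 1, 8 and 13 mostly resection 2 (1628 of 1784, 912 of 977 and 568 of 629), cluster 2 mostly sham 2 (1486 of 1628), cluster 7 mostly sham 1 (647 of 983) and cluster 11 mostly sham 3 (789 of 849). The resection 1 clusters themselves differed, in CPM without the TMM scaling of the other levels. Psmb8 was at 157 CPM in cluster 6 and 64.3 CPM in cluster 10, Psmb9 at 40.9 and 18.8 CPM and Psmb10 at 344 and 157 CPM. The part of cluster make-up in the resection values was not tested. The constitutive partners Psmb5 (-0.17), Psmb6 (-0.12) and Psmb7 (-0.32) and the activators Psme1 (-0.33), Psme2 (-0.11), Psme3 (0.10) and Psme4 (0.12) also overlapped between the groups. The better expressed members with the lowest values were Psma3 (-0.43), Psmb2 (-0.43) and Psma2 (-0.34). Of 47 members 43 lay below 0, with a median of -0.21 against -0.02 over all genes, and all 14 constitutive 20S genes lay below 0 (median -0.25).

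The summed constitutive 20S level carried the set difference. The sham libraries had 1502, 2626 and 3317 CPM, against 1480 and 2704 CPM with resection, a log2 ratio of -0.25 (exact permutation p = 0.7, where the smallest possible is 0.1). The ratio was -0.51 without sham 1, -0.20 without sham 2, 0.02 without sham 3, 0.12 without resection 1 and -0.75 without resection 2, and within sets A and B it was -0.02 and -0.14. The 17 cap genes summed to 1122, 1420 and 1596 CPM in the sham libraries, against 1047 and 1385 CPM with resection (exact permutation p = 0.4), and the 3 immune genes to 521, 543 and 609 against 424 and 639 CPM (exact permutation p = 0.9).

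**Figure D5:**
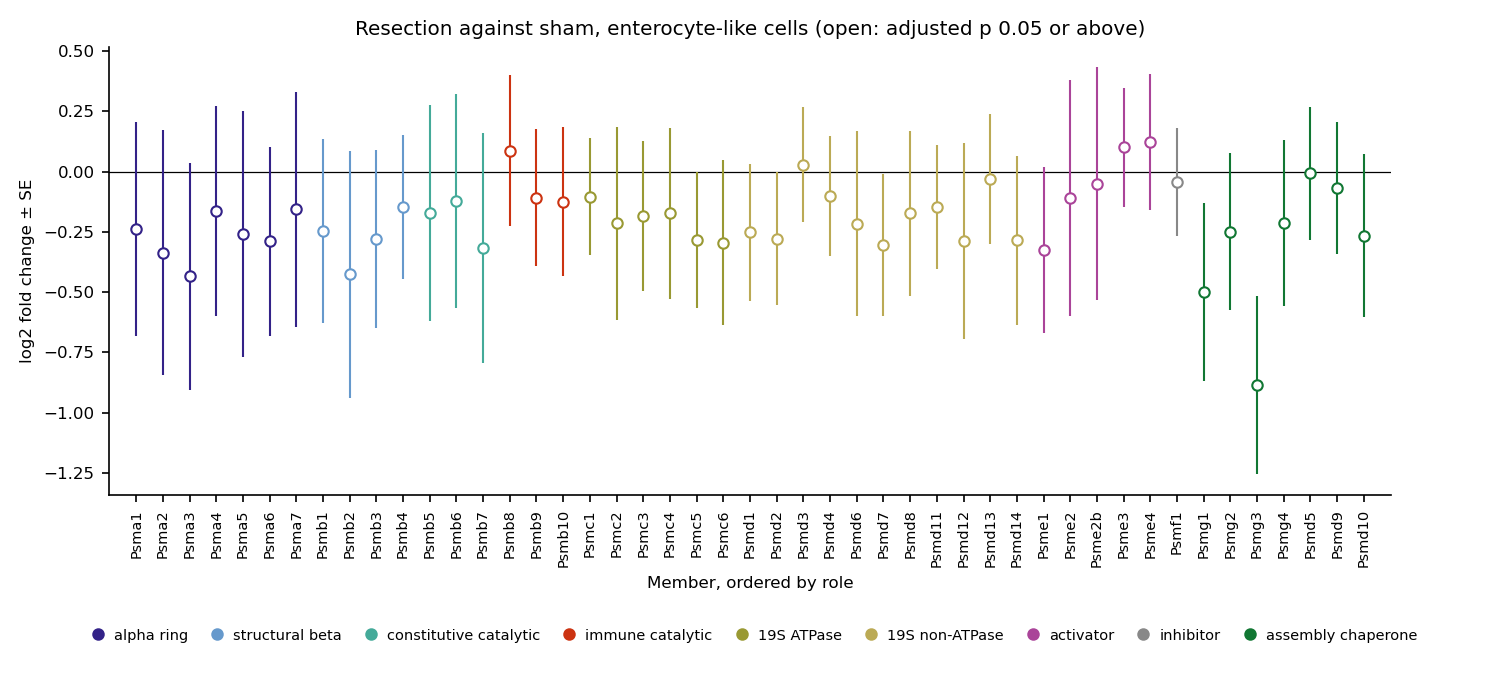
Log2 difference of each of 47 members (x axis, by role) between resection and sham in enterocyte-like cells, with bars for the SE and open points because no adjusted p was below 0.05. Most points lie below 0 by less than 1 SE, and Psmg3 is lowest at -0.89.

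Psmg3 was the 1 member of 47 whose resection values both fell outside the range of the sham values in enterocyte-like cells, where 10.2% of all genes lay above that range and 8.4% below it, a larger share than among members. In immature cells 0 members did so, against 6.8% above and 4.52% below, and in cycling-like cells 0 lay above (6.04% of genes) and 3 below (4.84%), namely Psmd13 (-0.28), Psme3 (-0.27) and Psmd9 (-0.20). Psme4 lay above the sham range in goblet-like (0.33) and Paneth-like cells (0.20), against 12% and 7.33% of genes. Psmd2 lay below it in both (-0.63 and -0.54), as did Psmd1 (-0.62) and Psmd11 (-0.77) in goblet-like cells, against 8.28% of genes in goblet-like and 5.98% in Paneth-like cells. These were named after their values were seen, and none passed the test. In enterocyte-like cells Psmg3 was at 3.88, 4.64 and 7.01 CPM in the sham libraries, against 2.34 and 3.29 CPM with resection (-0.89, SE 0.37, unadjusted p = 0.0457, adjusted p = 0.913). These levels rest on 17 or more UMIs per library. In the pathway lists, H2-Q1 (1.23, unadjusted p = 0.00215, adjusted p = 0.448), H2-Q2 (0.81), Igtp (-0.56), Ifnar2 (0.57), and Adrm1 (-0.53) had p-values among the lowest, and none passed.

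The other classes gave 0 called members as well, against 0% of 10109 genes in immature, 0% of 9426 in cycling-like, 0.0158% of 6316 in Paneth-like and 0.0693% of 5774 genes in goblet-like cells, and 0% of 11691 in all epithelial cells together. Psmb8 was at 0.10, -0.18, 0.20 and 0.20 in immature, cycling-like, Paneth-like and goblet-like cells and at 0.13 over all epithelial cells. In the same order Psmb9 was at -0.09, -0.07, -0.80, -0.48 and -0.09, and Psmb10 at 0.03, 0.00, -0.12, -0.13 and -0.04. The immune share differed between resection and sham by 1.32 points in enterocyte-like cells (53.9% ± 9.74 in 3 sham and 55.2% ± 4.41 in 2 resection libraries, exact permutation p = 1), 0.81 in immature, 0.50 in cycling-like, -2.49 in Paneth-like and 1.25 in goblet-like cells, each with an adjusted p of 1. Within set A resection was lower in all of these classes, by 6.80 points in enterocyte-like cells, and within set B it was higher in all of them, by 3.82 points there.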

How the data were processed

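Droplet 3' libraries of ileal epithelium (3 sham, 2 resection) were deposited by the authors as UMI count matrices, which hold whole counts per gene and cell. The submitters' processing notes name the builds mm10 and GRCm38, and the Cell Ranger version is not clear in the sources used here. The members, gene lists and library sets were chosen with earlier results of these data known. Cells with at least 500 genes and at most 20% mitochondrial UMIs were kept (18955 of 19404), and 720 (3.80%) were removed as simulated-neighbour doublets. The rest were clustered (scanpy 1.11.5, 2000 variable genes without the members and class I presentation genes, 30 components, Leiden resolution 1) and named from fixed markers. Counts were summed per library and class and tested with edgeR 4.0.16 (R 4.3.3, TMM, filterByExpr, quasi-likelihood F-test, Benjamini-Hochberg over all genes), classes with at least 20 cells in every library. DESeq2 1.42.0 was an alternative. Levels are TMM-scaled CPM, and those given by cluster are CPM without that scaling. The text names the catalytic subunits, Psme1 to Psme4, the 3 largest differences each way among members of at least 20 CPM, and the 2 lowest-p genes of each pathway list. Some genes that this rule names are not reported here. Shares were compared by exact two-sided permutation tests over libraries. Intervals cover counting error only. On simulated counts, 2 of the comparisons were checked for recovery of known log2 changes of 2 each way. The simulated spread was fixed and held no library sets. The check therefore does not cover smaller changes or the spread of these data. Other alternatives were other scaling, no low-count filter, each library left out, other cutoffs, doublets kept and other clustering. Member counts from alternatives other than DESeq2 are given without the share of all genes called there.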

Additional observations from a re-analysis of the deposited data

Results flagged for a closer look

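In 37 results with 1 value for each of the 5 libraries, 4 had a library far from the other 4, where chance flags about 1 in 20. The difference in immune share between class II-high and other enterocyte-like cells was 9.037 percentage points in resection 1, against 5.142 to 6.201 in the other libraries. The log2 ratio of Psmb10 between cycling-like and enterocyte-like cells was -0.9105 in sham 3, against -0.5123 to -0.3631 elsewhere. The log2 ratio of Psmb9 between Paneth-like and enterocyte-like cells was -2.935 in resection 1, against -1.296 to -1.129, and rested there on 3 UMIs. The log2 ratio of Psmb10 between tip-high and other enterocyte-like cells was 0.2073 in sham 1, against -0.4556 to -0.3688.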

How the results depend on the processing

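With the replicate number from the titles as a replicate block, 0 members were called for resection in enterocyte-like cells, as without it. The numbers are no stated pairing, and the groups hold 2 shared numbers. Residuals correlated at 0.59 for the libraries numbered 1, 0.19 for those numbered 2 and 0.53 for sham 3 with resection 2. With 2 resection libraries, the correlations of a sham library with each of them are equal and opposite by construction. These values therefore cannot decide whether the numbers pair the libraries. No alternative called a member for resection in any class. The calls of Psmb8 and Psmb9 in interferon-high cells held in every alternative run. Among values of single named genes, 2073 values kept direction and call, 123 lost and 34 gained a call, and 142 turned sign. Limiting cells to at most 10% mitochondrial UMIs was not run for enterocyte-like cells and class comparisons, since it left 12 enterocyte-like cells in sham 1, and resolution 0.5 left cycling-like cells unnamed. With the 10% limit, 215 of 256 epithelial cells of sham 1 were Paneth-like, against 254 of 3981 in resection 2. Values for all epithelial cells under that limit thus compare libraries of unlike class make-up. With 3 and 2 libraries, depth and library spread limit what can be seen for resection, and classes of few cells rest on few UMIs. The values that turned sign, or changed for the main counts, follow as log2 differences, with the setting in brackets, or as a range from the lowest to the highest value when each library was left out in turn. The cause was not tested. Resection against sham in enterocyte-like cells gave Psmb8 -0.018 (the replicate block), -0.38 to 0.44, Psmb9 0.0018 (resolution 0.5), -0.53 to 0.22 and Psmb10 -0.42 to 0.13. Psmb5 0.064 (the replicate block), -0.81 to 0.27, Psmb6 0.084 (the replicate block), 0.043 (the set as a term), -0.71 to 0.29 and Psmb7 0.041 (the replicate block), -0.85 to 0.072 were also obtained in that comparison. Psme2 0.21 (the replicate block), 0.084 (the set as a term), -0.73 to 0.32, Psme3 -0.012 to 0.24 and Psme4 -0.17 to 0.37 were also obtained in that comparison. Psmb2 -1.09 to 0.028 and Psma2 0.040 (the replicate block), -0.98 to 0.11 were also obtained in that comparison. Resection against sham in immature enterocyte-like cells gave Psmb8 -0.018 (the replicate block), -0.10 (resolution 0.5), -0.57 to 0.56, Psmb9 0.040 (the set as a term), -0.43 to 0.20 and Psmb10 -0.17 to 0.22. Resection against sham in cycling-like cells gave Psmb8 -0.74 to 0.22, Psmb9 0.080 (the set as a term), -0.39 to 0.23 and Psmb10 -0.0066 (DESeq2), -0.0065 (RLE scaling), -0.029 (the replicate block), -0.22 to 0.20. Resection against sham in Paneth-like cells gave Psmb8 -0.63 to 0.72, Psmb9 -2.40 to 0.020 and Psmb10 -0.92 to 0.38. Resection against sham in Goblet-like cells gave Psmb8 -0.28 to 0.56 and Psmb10 -0.46 to 0.18. Resection against sham in all epithelial cells gave Psmb8 -0.041 (the replicate block), -0.42 to 0.53, Psmb9 0.071 (at most 10% mitochondrial UMIs), -0.51 to 0.23 and Psmb10 0.00024 (the set as a term), 0.076 (at most 10% mitochondrial UMIs), -0.33 to 0.20. Immature enterocyte-like against enterocyte-like cells gave the number called higher 6 (no library block), the number called lower 3 (no filter), 2 (doublets kept), 1 to 2 and Psmb10 -0.013 (no filter). Psme1 0.012 (no library block), -0.061 to 0.035 were also obtained in that comparison. Cycling-like against enterocyte-like cells gave the number called higher 14 (no library block), the number called lower 5 (DESeq2), 1 (no library block), 5 to 9 and Psmb9 0.053 (DESeq2), 0.057 (RLE scaling), 0.096 (no library block), -0.035 to 0.057. Paneth-like against enterocyte-like cells gave the number called lower 5 (no library block), 12 to 18, Psmb5 -0.090 to 0.085 and Psme4 0.013 (no library block), -0.13 to 0.1. Psmc3 -0.11 (no filter) were also obtained in that comparison. Goblet-like against enterocyte-like cells gave the number called lower 3 (DESeq2, resolution 0.5), 11 (no filter), 0 (no library block), 2 to 5, Psmb10 0.0052 (no library block), 0.024 (resolution 0.5), -0.12 to 0.016 and Psmb6 -0.067 (no filter). Psmb7 -0.067 (no filter) and Psme4 -0.066 (no filter), -0.034 (resolution 0.5), -0.028 to 0.10 were also obtained in that comparison. T cell-like against enterocyte-like cells gave the number called higher 2 (no library block), the number called lower 2 (DESeq2, resolution 0.5), 8 (no filter), 0 (no library block), 3 to 6 and Psmb9 -0.013 to 0.23. Psmb7 0.017 (no library block), Psme3 -0.050 (no filter), -0.087 to 0.16 and Psmd10 -0.090 to 0.26 were also obtained in that comparison. Interferon-high cells gave the number called higher 2 (the top 20%), 2 to 5, the number called lower 0 (DESeq2), 1 (the top 5%), 1 to 3 and Psmb6 -0.030 (no filter), -0.16 (the top 5%), -0.046 (the top 20%), -0.018 (doublets kept), -0.031 to 0.016. Psme4 0.022 (DESeq2), 0.047 (the top 5%), 0.012 (the top 20%), -0.13 to 0.10 were also obtained in that comparison. MHC class II-high cells gave the number called higher 2 (the top 20%), 1 to 2, the number called lower 0 (DESeq2, RLE scaling, the top 5%, doublets kept), 1 (the top 20%), 0 to 1 and Psme1 -0.0036 (no filter). Psme3 0.0012 (DESeq2), 0.0073 (RLE scaling), 0.30 (the top 5%), 0.013 (the top 20%), -0.081 to 0.063 and Psme4 0.0079 (the top 5%), 0.079 (doublets kept), -0.11 to 0.060 were also obtained in that comparison. Stress-high cells gave Psmb9 -0.021 (the top 20%), Psmb5 -0.028 (no filter), -0.13 (doublets kept), -0.028 to 0.062 and Psmb6 0.0061 (the top 5%), -0.077 to 0.022. Psme1 0.021 (DESeq2, RLE scaling), 0.0061 (the top 5%), -0.050 to 0.039 and Psme3 -0.0064 to 0.13 were also obtained in that comparison. Villus tip-high cells gave the number called higher 1 (the top 20%), the number called lower 4 (DESeq2), 11 (no filter), 4 to 10 and Psmb9 -0.0047 (DESeq2), -0.041 (no filter), -0.12 (the top 5%), -0.061 (doublets kept), -0.079 to 0.046. Psme3 -0.13 to 0.064, Psme4 -0.031 (no filter), -0.11 to 0.094 and Psmf1 -0.066 to 0.22 were also obtained in that comparison. Sums in enterocyte-like cells gave constitutive 20S -0.75 to 0.12, 19S -0.40 to 0.0059 and immune 0.019 (resolution 0.5), 0.15 (set B), -0.40 to 0.20. Sums in all epithelial cells gave constitutive 20S 0.16 (set A), -0.68 to 0.25, 19S -0.36 to 0.11 and immune -0.19 (set A), -0.37 to 0.32. The resection difference in immune share was, in points, in enterocyte-like cells -6.80 (set A), -1.80 to 6.94, immature enterocyte-like cells -1.47 (resolution 0.5), -4.23 (set A), -2.14 to 4.80, cycling-like cells -5.12 (set A), -3.76 to 5.45. It was in Paneth-like cells 5.64 (set B), -7.79 to 2.82, goblet-like cells -0.218 (doublets kept), -10.8 (set A), -3.61 to 8.30, all epithelial cells -6.82 (set A), -2.21 to 6.63.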
